A study of Mus musculus with 3 samples.

Results

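Notch receptors, their ligands and target genes were measured in endothelial cells sorted from the cortex of the adult mouse kidney. The set held 10 genes, out of 19938 that the array could measure singly: the receptors Notch1, Notch2, Notch3 and Notch4, the ligands Dll1, Dll4, Jag1 and Jag2, and the targets Hes1 and Hey1. The genes were taken by their role in the pathway, with earlier results of these data known. Each had 1 probeset (a group of probes for 1 transcript) that the array annotation assigns to that gene alone.

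Notch receptors are single-pass membrane proteins that are activated by Delta or Jagged ligands on a neighbouring cell. Ligand binding lets ADAM proteases and then the gamma-secretase complex cut the receptor, and the freed intracellular domain enters the nucleus, joins the DNA-binding protein Rbpj and switches on Hes and Hey genes, which encode transcriptional repressors. In blood vessels the pathway is known for the arterial fate of endothelium, for limiting sprouting and for signals from endothelium to the smooth muscle around it.

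All samples belonged to 1 group. GFP-positive cells were sorted from adult Tie2-GFP mice (Tg(TIE2GFP)287Sato, a mixed background, mostly CD-1, sex unknown), in which the promoter of the endothelial receptor gene Tie2 (Tek) drives GFP, so that the sort gate is set by activity of this promoter. There were 3 samples, each from 1 kidney, with the medulla cut away and the glomeruli held back on a 40 µm mesh, and RNA after 1 round of amplification was hybridised to Affymetrix Mouse Gene 1.0 ST arrays. No second cell type or condition was analysed here, and so the question asked of each gene was whether its mean signal lay above or below 100, and how the genes ordered among themselves. The study's filter used the same level but on raw expression in 3 samples, whereas here it was set against the mean of the deposited normalized values. The 3 columns had median log2 signals of 5.70, 5.70 and 5.66 and correlated with each other at r = 0.941 to 0.950 across probesets, which are not independent replicates.

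Promoter sequences, 250 to 11 bases before the annotated start, were at hand for 8 of the 10 genes from RefSeq on GRCm38.p6. Hes1 and Hey1 had no entry. They are shown for a receptor and a ligand known from endothelium, Notch4 and Dll4, which both passed the limit of 100 below, and for Hey2, a further target gene, which did not. Capitals mark the core AGGAAG of ETS factors, a family that holds the endothelial regulators Erg and Fli1, in Notch4, the GC box GGGCGG, bound by Sp factors, in Dll4, and the Rbpj core TGGGAA in Hey2, in each case on either strand.
Notch4 (chr17:34564045-34564284, + strand): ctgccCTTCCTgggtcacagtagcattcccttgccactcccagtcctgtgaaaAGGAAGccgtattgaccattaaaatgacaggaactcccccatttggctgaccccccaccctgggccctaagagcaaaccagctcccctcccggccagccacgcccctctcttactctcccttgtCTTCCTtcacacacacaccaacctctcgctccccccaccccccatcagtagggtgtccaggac
Dll4 (chr2:119325534-119325773, + strand): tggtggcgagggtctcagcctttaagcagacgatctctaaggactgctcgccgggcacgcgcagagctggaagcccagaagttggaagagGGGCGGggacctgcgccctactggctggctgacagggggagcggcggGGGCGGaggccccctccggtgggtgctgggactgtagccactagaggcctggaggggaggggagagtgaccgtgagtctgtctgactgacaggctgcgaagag
Hey2 (chr10:30842794-30843033, - strand): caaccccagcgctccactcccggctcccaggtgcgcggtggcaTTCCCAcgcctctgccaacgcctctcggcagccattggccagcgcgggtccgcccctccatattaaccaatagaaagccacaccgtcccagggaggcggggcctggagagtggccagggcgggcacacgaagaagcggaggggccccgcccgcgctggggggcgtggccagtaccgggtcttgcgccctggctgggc

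The ETS core was found in 1 of the 8 Notch genes with a promoter entry, against 28.4% of all 32851 promoters of the same length. That gene was Notch4, with 3 matches at 245, 197 and 73 bases before the start. The GC box was found in 5 of the 8, Notch1, Notch2, Notch3, Dll4 and Jag2, against 31.3% of all promoters. The Rbpj core was found in 0 of the 8, against 20.8% of all promoters, and Hey2 had 1 match, 207 bases before its start. None of the 3 motifs contains another. A match is a description of letters in this window, and no match says only that the letters are not in it.

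The mean signal was called above 100 by the test for 6 of the 10 Notch genes: the receptors Notch1, Notch3 and Notch4 and the ligands Dll4, Jag1 and Jag2. Among all genes 22.9% were called above. Notch2, Dll1 and Hes1 were called below, 3 of 10, where 65.0% of all genes were, and Hey1, whose mean also exceeded 100, was called neither way. Calls were made with limma, one-sided, at an adjusted p under 0.05 after Benjamini-Hochberg adjustment over all 35557 probesets. With no test, 7 of the 10 genes reached 100 in every sample, against 28.0% of all genes. The median over the 10 genes was 7.05 on the log2 scale, against 5.88 over all genes.

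A property of the deposited values touches most of these calls. Of the 10 Notch genes 6 had the same value to 5 decimals in all 3 samples, and so did 51.2% of all genes and 27.5% of the 6127 genes whose mean reached 100. Equal values leave a gene no spread of its own and can make its p small at a short distance from the limit, as for Hes1 below. When such probesets were given the median spread of the others, 5 of the 10 Notch genes were above (21.1% of all genes), 2 were below (62.2% of all genes) and 3 were neither. Below, "with the spread of the other probesets" means this fit. Genes with unequal values kept their own spread in it. Their p-values moved all the same, since the prior shared over all probesets changed too (prior degrees of freedom 0.297 and 1.46). For the 10 Notch genes both p-values are given where the calls differ. What made the values equal was not tested.

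**Figure D1:**
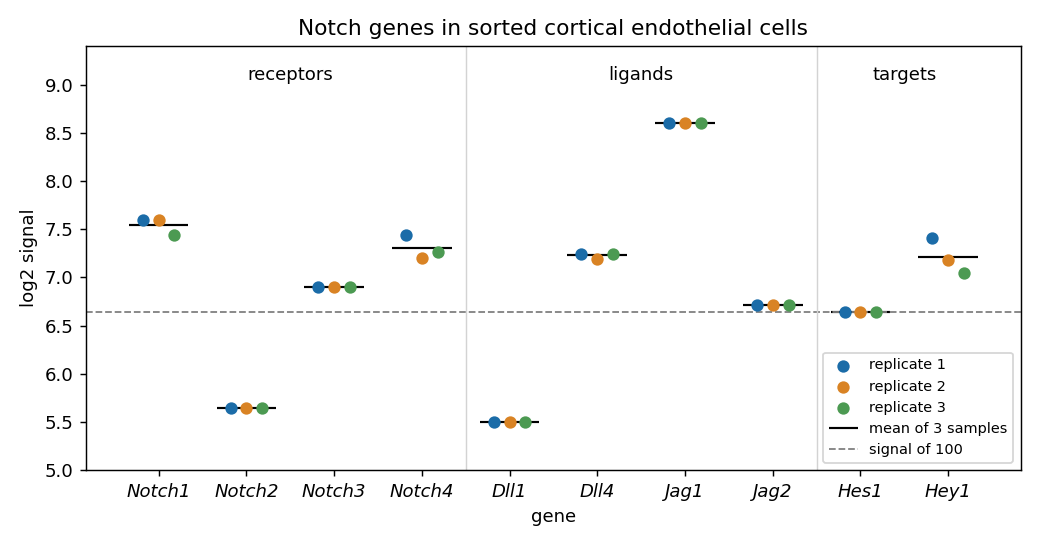
Log2 signal (vertical axis) of the 10 Notch genes (horizontal axis, grouped by role) in each of the 3 samples (coloured points), with the mean as a black line and a signal of 100, 6.64 on the log2 scale, as a dashed line. Jag1 is the highest at 8.60, Dll1 and Notch2 lie below the line in all samples, Hes1 lies on it, and 6 genes have 3 equal values.

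Among the receptors Notch1, which mouse embryos need for vascular development, was the highest. Its signals were 192, 192 and 173 in replicates 1, 2 and 3, and its mean log2 signal was 7.54 ± 0.09 (SD, n = 3), with a 95% confidence interval of 7.36 to 7.72. All 3 values lay above 100, and the mean was 1.86-fold the limit (limma adjusted p = 0.00505). The call was lost when replicate 1 or replicate 2 was left out (limma adjusted p = 0.0814 and 0.08). The mean was then 0.867 over the limit on the log2 scale, against 0.892 with all samples. Here and below, fits without 1 replicate have 1 residual degree of freedom, against 2, so a lost call need not mean a changed level.

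Notch4, a receptor known mainly from endothelial cells, followed with signals of 174, 147 and 154. Its mean log2 signal was 7.30 ± 0.12 (SD, n = 3; limma adjusted p = 0.018). Replicate 1 was the highest, and no sample lay under 100, but the call was lost when any 1 of the 3 replicates was left out (limma adjusted p = 0.0507 to 0.114). The log2 difference from the limit was then 0.589 to 0.709, against 0.658 with all samples. A further 6 probesets are annotated to Notch4 and Sympk together, with mean log2 signals of 4.33 to 5.73, and were not used for either gene.

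Notch3, the receptor of vascular smooth muscle and pericytes, had a signal of 119 in each sample, 6.90 on the log2 scale. It was called above with its own zero spread (limma adjusted p = 4.72e-06) and not with the spread of the other probesets (adjusted p = 0.203). Notch2, the receptor known for its part in forming the proximal nephron, had 50.4 in each sample, 5.65 on the log2 scale. It was below the limit under both estimates of spread (limma adjusted p = 1.94e-09 and 0.00164).

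Among the ligands Jag1, which is expressed by arterial endothelium and signals to smooth muscle, stood above all other genes of the set. Its signal was 388 in each sample, 3.88-fold the limit and above that of 92.8% of all genes. It was the only one of the 10 that stayed above under every alternative, including a limit of 200 and the spread of the other probesets (limma adjusted p = 0.00106 with that spread).

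Dll4, the ligand of arterial endothelium and of the leading cells of sprouts, had signals of 152, 146 and 152. Its mean log2 signal was 7.23 ± 0.03 (SD, n = 3; limma adjusted p = 0.0015), and the samples differed little. The call above 100 was kept in each of the 12 alternatives that left the limit at 100. These include the lowest probeset and the mean over probesets, which could not change its values.

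Jag2, a second Jagged ligand, had 105 in each sample, 6.71 on the log2 scale. It was called above only through its zero spread (limma adjusted p = 5.49e-05), and not with the spread of the other probesets (adjusted p = 1.0), after quantile normalization (0.227), after a shift of the columns to 1 median (0.145) or without replicate 3 (0.0569). Dll1, a Delta ligand also known from arteries, was the lowest of the 10 at 45.2 in each sample, 5.50 on the log2 scale. It was below the limit under both estimates of spread (limma adjusted p = 1.09e-09 and 0.00108).

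The 2 targets lay close to the limit or varied most. Hes1, a target in many tissues, had 99.7 in each sample, 0.004 under the limit on the log2 scale. It was called below through its zero spread (limma adjusted p = 0.00322), and was called neither way with the spread of the other probesets (adjusted p = 0.688). A distance this small is a value at the limit, and the call says nothing of whether the gene was expressed.

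Hey1, a target that marks arterial endothelium, had signals of 170, 145 and 132. The mean log2 signal was 7.21 ± 0.18 (SD, n = 3), and all 3 samples lay above 100, with replicate 1 the highest and replicate 3 the lowest. The limma adjusted p was 0.05002, just past the threshold, so that the gene was called neither way. Of the 12 alternatives with the same limit 5 called it above. In the limma fit that gave equal values the spread of the others, Hey1 kept its own spread and had an adjusted p of 0.0245. Its range of 0.36 on the log2 scale was larger than that of 64.6% of the genes with a mean of 100 or more, against 55.3% for Notch4, 46.5% for Notch1 and 35.0% for Dll4.

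**Figure D2:**
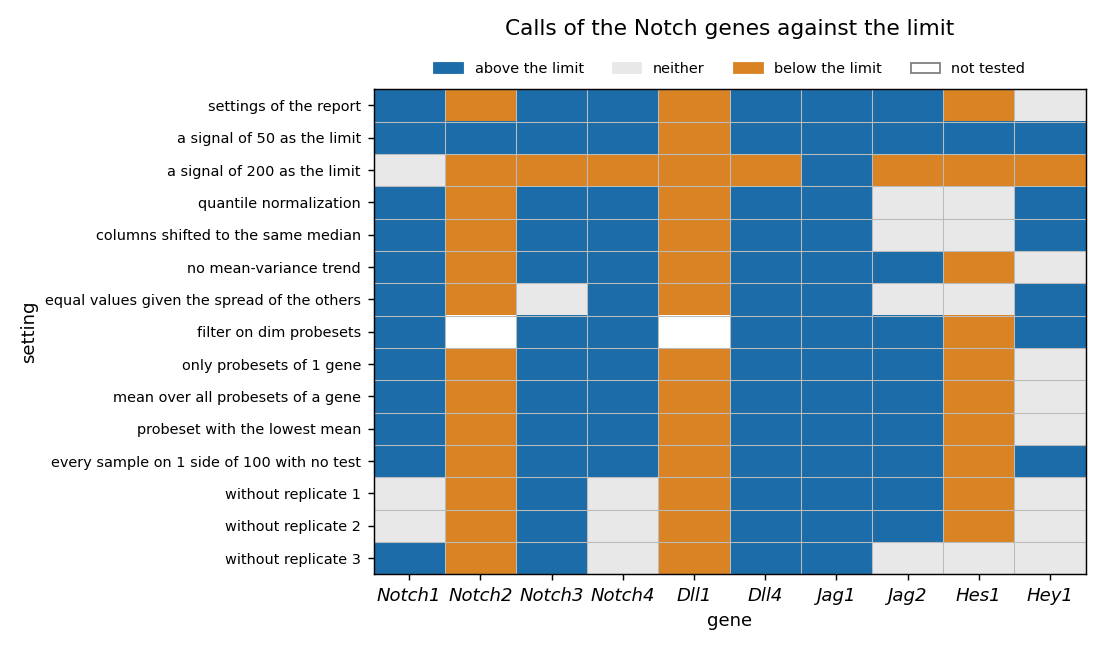
Call of each of the 10 Notch genes (horizontal axis) against the limit under the settings of the report and 14 alternatives (vertical axis); blue is above, orange below, grey neither and white not tested. Jag1 is above in every row, Dll4 in every row but the limit of 200, and Hey1 and Notch4 change most often among genes with unequal values.

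Ordered by mean log2 signal, the genes ran Jag1, Notch1, Notch4, Dll4, Hey1, Notch3, Jag2, Hes1, Notch2 and Dll1. Signals of different probesets depend on how well their probes bind as well as on RNA, so the order is one of signals. Jag1 exceeded Notch1 by 1.06 on the log2 scale, with a gap between their values larger than the spread of either. Notch1 exceeded Notch4 by 0.23 in the mean, and by 0.15 to 0.39 within samples, and Notch4 exceeded Dll4 by 0.08, and by 0.01 to 0.20 within samples. The values of both pairs overlapped between samples, although the order was the same in 3 of 3. Dll4 and Hey1 differed by 0.02 and changed places in 1 of the 3 samples. Hey1 exceeded Notch3 by 0.31, with no overlap. The lower 5 genes had no spread of their own, and the steps between them were 0.19, 0.07, 0.98 and 0.16.

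**Figure D3:**
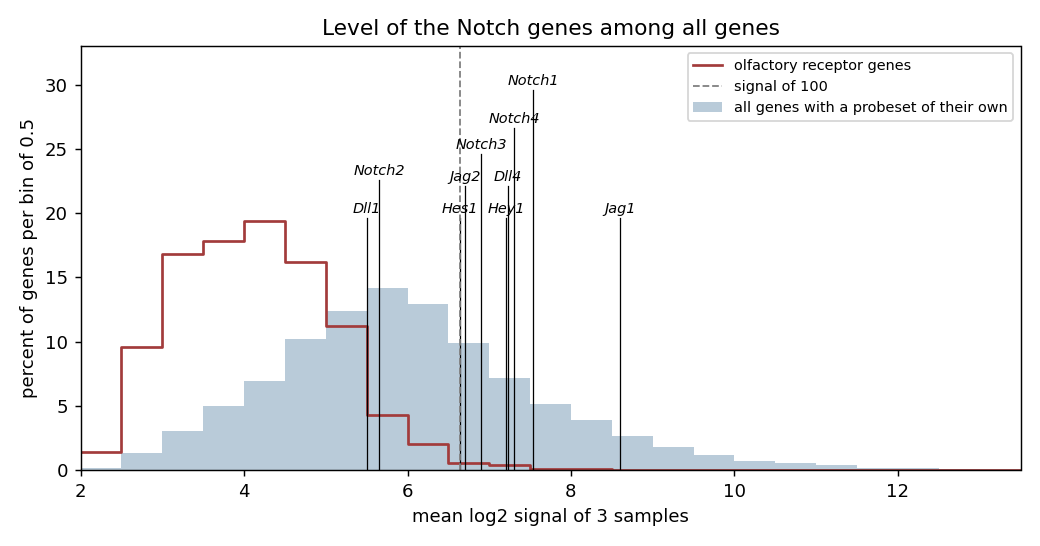
Percent of genes (vertical axis) per bin of 0.5 of mean log2 signal (horizontal axis) for all 19938 genes (bars) and for 1015 olfactory receptor genes (red line), with the 10 Notch genes as vertical lines and a signal of 100 as the dashed line. Dll1 and Notch2 fall in the upper tail of the olfactory receptors, and the other 8 genes lie beyond its 95th percentile of 5.77.

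Olfactory receptor genes, which sensory neurons of the nose use, gave a measure of background. Their 1015 mean log2 signals had a median of 4.11 and a 95th percentile of 5.77. Notch2 lay above 93.9% and Dll1 above 92.4% of them, both under that percentile, and the other 8 Notch genes lay over it. A level under 100 was a low signal on this array and does not show that the gene was off.

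The other genes of the pathway were taken as 7 lists of 54 genes, of which 51 were analysed here. Of the 51 genes 19 were above 100, 26 below and 6 neither, with a median log2 signal of 6.58, against 22.9% above, 65.0% below and a median of 5.88 over all genes. With the spread of the other probesets for equal values, which 25 of the 51 had, the counts were 16, 21 and 14, against 21.1% above and 62.2% below over all genes. Against these shares the counts of the single lists that follow are descriptions of few genes each.

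The machinery that cuts the receptor was in part well over the limit. For comparison, 22.9% of all genes were above and 65.0% below. Of 9 proteases and gamma-secretase subunits 4 were above, namely Furin, which cleaves the receptor during its maturation, Adam10 and Adam17, which cut it after ligand binding, and Psenen, a gamma-secretase subunit. Adam10 was at 8.90 on the log2 scale in each sample, and Psenen had 9.52, 10.30 and 9.62. Psen2, a catalytic subunit, Aph1b and Aph1c were below, while Ncstn (7.24) and Aph1a (6.87) passed neither test. Ncstn was above when equal values of other probesets were given a spread (limma adjusted p = 0.0417, against 0.0941), its own being unchanged. A second Aph1a probeset, at 6.72, was above (adjusted p = 0.036). Furin lay at 6.87 in each sample and was not above with the spread of the other probesets (limma adjusted p = 0.261). Adam17, at 7.89, 8.41 and 8.41, lost its call without replicate 2 or replicate 3 (adjusted p = 0.158 and 0.0794).

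In the nuclear complex and its corepressors 7 of 10 genes were above and 2 below, against 22.9% and 65.0% of all genes. Rbpj, the DNA-binding partner of the receptor, had log2 signals of 7.80, 7.72 and 8.03, a mean of 7.85 ± 0.16 (SD, n = 3; limma adjusted p = 0.00883). The call was lost without replicate 1 or replicate 2 (adjusted p = 0.114 and 0.0814). A second probeset of Rbpj lay at 5.41 in each sample, so the gene's call depends on which is taken. The coactivators differed among themselves, with Maml2 at 6.76 in each sample, above the limit, and Maml1 at 6.03 and Maml3 at 5.84, both below. Maml2 was not above with the spread of the other probesets (limma adjusted p = 0.665), and a second Maml2 probeset averaged 6.22.

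Ligand activity is set in part by ubiquitin ligases and by sugars on the receptor. Mib1, the ligase that drives ligand uptake, had log2 signals of 8.02, 7.67 and 7.40, a mean of 7.70 ± 0.31 (SD, n = 3; limma adjusted p = 0.0422), and lost its call when any 1 replicate was left out (adjusted p = 0.0624 to 0.266). Neurl1b was at 6.76, called above (limma adjusted p = 0.00991), with a second probeset at 4.98. The call was lost when equal values of other probesets were given a spread (limma adjusted p = 0.379), with Neurl1b keeping its own. It was also lost after quantile normalization (0.0742) or the median shift (0.0551), and without replicate 1 (0.116) or replicate 3 (0.0657). Mib2 (6.06) and Neurl1a (5.84) were below. Of the 5 glycosyltransferases Mfng, a fringe enzyme, was the only one above, where 22.9% of all genes were. It lay at 7.03 ± 0.04 (SD, n = 3, limma adjusted p = 0.00565) and lost the call without replicate 1 or replicate 2 (adjusted p = 0.0812 and 0.0798). The fringe genes Lfng and Rfng, and Pofut1 and Poglut1, which add the first sugars, were called below. Of these only Rfng (5.90) was also below in the fit that gave equal values the spread of the others. Lfng, which kept its own spread, had an adjusted p of 0.0828 in that limma fit, Pofut1 0.457 and Poglut1 0.419.

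Among 10 negative regulators 3 were above and 6 below, near the 22.9% and 65.0% of all genes. Egfl7, a protein secreted by endothelium that binds Notch, had log2 signals of 10.03, 10.03 and 9.76 and was the highest of the 51 genes. Itch (9.59) and Numb (7.44), both linked to removal of the receptor, were above as well, Numb not when any 1 replicate was left out (adjusted p = 0.0579 to 0.21). Fbxw7, which marks the intracellular domain for breakdown, had 10.04, 8.80 and 7.97 and passed neither test (limma adjusted p = 0.0981). It was above when equal values of other probesets were given a spread (limma adjusted p = 0.0305), with its own unchanged. The same held after quantile normalization (0.0458) or the median shift (0.0483) and with dim probesets left out (0.0492). A second Fbxw7 probeset, at 6.52, was below (0.0118). Nrarp, a target that damps the signal, lay below the limit at 6.09 ± 0.09 (SD, n = 3, limma adjusted p = 0.00391). Numbl and 3 of the 4 deltex genes were below whether or not equal values were given a spread, and Dtx3 only where they were not.

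The other Hes and Hey genes had a median log2 signal of 6.37. Of 7 genes 4 were below, where 65.0% of all genes were, Hes2 (5.19), Hes3 (5.36), Hes7 (6.37) and Hey2 (5.46), of which Hes7 was not with the spread of the other probesets (limma adjusted p = 0.0617). Hes5 (6.65) and Hes6 (6.69) were called above through equal values alone (limma adjusted p = 0.0018 and 8.58e-05), and 0 of the 7 were above with the spread of the other probesets. Heyl had 6.70, 6.70 and 6.84 and passed neither test. The less usual ligands had 0 of 6 above and 5 below, namely Dll3 (5.16), Dlk1 (6.17), Dner (4.82), Mfap2 (6.37) and Mfap5 (4.81), while Dlk2 (6.63) was neither.

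**Figure D4:**
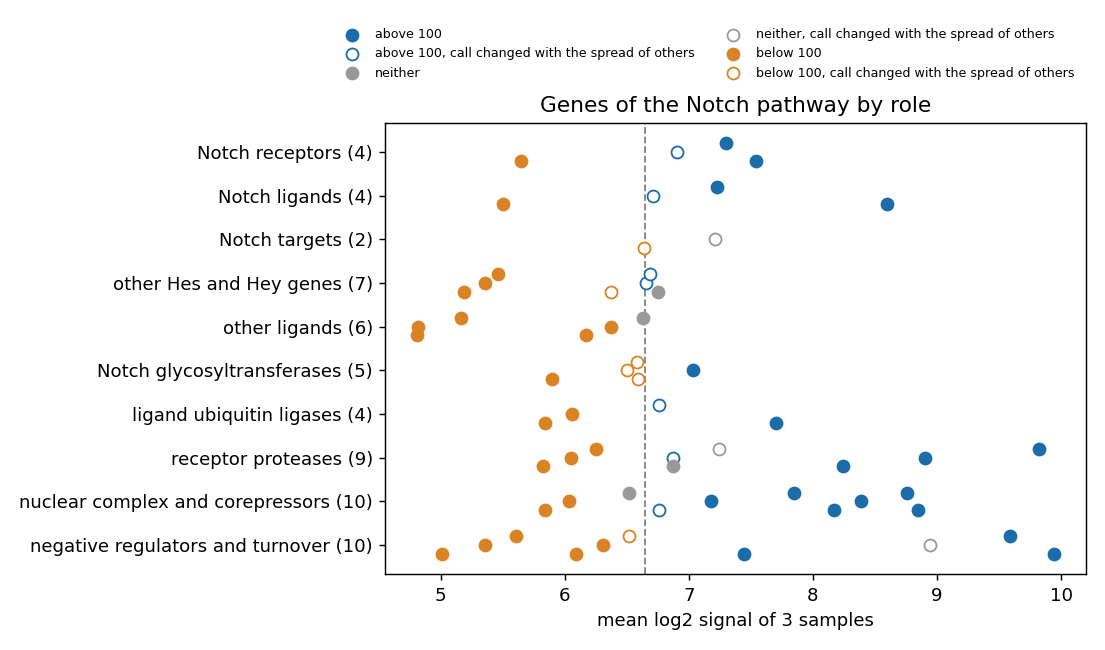
Mean log2 signal over 3 samples (horizontal axis) of each Notch pathway gene by role (rows, with the number of genes measured; points are set apart vertically within a row only for sight); colours give the call against a signal of 100 (dashed line), and open points are genes whose call changes when probesets with 3 equal values are given the spread of the others. Psenen and Egfl7 lie near 10, and the less usual ligands and the other Hes and Hey genes lie mostly left of the line.

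The samples held RNA of endothelial markers and of tubule markers. Summed signals of the endothelial and proximal tubule lists were similar, the latter resting largely on 1 gene, Kap. All 14 endothelial genes were above 100, where 22.9% of all genes were, among them Pecam1, Cdh5, Kdr and Flt1. Tek is also among the 14, and its promoter set the sort gate, so its level is no separate support. Of 12 arterial genes 8 were above (Efnb2, Gja4, Gja5, Sox17, Cxcr4, Nrp1, Fbln5 and Cxcl12), with Unc5b and Gkn3 below. Of 7 venous genes 4 were above (Nr2f2, Ephb4, Nrp2 and Vcam1) and 3 below (Flt4, Ackr1 and Vwf). Only Ackr1 of the 3 was below with the spread of the other probesets. Of 12 smooth muscle and pericyte genes 3 were above (Rgs5, Mylk and Kcnj8) and 4 below, against 22.9% above over all genes. Of 6 podocyte genes 2 were above (Podxl and Cdkn1c) and 4 below. Kcnj8 and Cdkn1c were not above in the fit that gave equal values the spread of the others. Proximal tubule genes were above in 8 of 11, and in 11 of 11 with the spread of the other probesets (21.1% of all genes). All 11 reached 100 in every sample, against 28.0% of all genes. They summed to 13600, 11900 and 12500 in replicates 1, 2 and 3, while the 14 endothelial genes summed to 12900, 13300 and 10900. Kap alone gave 8360, 7550 and 6570 of the proximal tubule sums. Emcn, the highest endothelial gene, gave 3010, 3990 and 2310 of the endothelial sums. The highest mean log2 signal was 12.86 (Kap) in the proximal tubule list and 11.56 (Emcn) in the endothelial list, and the medians were 8.65 and 9.02. Sums of signals do not give shares of RNA. The paper inferred a minor contamination of its cortical endothelial cells, with mainly a proximal tubule profile. Of 6 genes of the thick ascending limb 3 were above (Umod, Slc12a1 and Egf; summed signals 3810, 2210 and 3580), and of 10 genes of the distal tubule and collecting duct 3 were (Slc12a3, Calb1 and Pvalb; summed signals 2230, 1630 and 3410). Of 7 macrophage and leukocyte genes 0 were above. The cell in which each Notch gene was expressed was not measured, and in such bulk samples fewer cells of a type and less RNA per cell cannot be told apart.

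Replicates 2 and 3 each stood apart in some markers. Smooth muscle and pericyte genes summed to 2140, 2180 and 4060, and 9 of 12 were highest in replicate 3, with Acta2 at 8.43, 7.97 and 9.50 on the log2 scale. Distal tubule and collecting duct genes were highest in replicate 3 in 7 of 10, and 8 of the 14 endothelial genes were lowest there. In replicate 2 the tubule genes were lowest, 7 of 11 for the proximal tubule, 4 of 6 for the thick ascending limb and 7 of 10 for the distal tubule and collecting duct. Over all 19938 genes, 3039 were highest and 2523 lowest in replicate 3, 2056 were lowest in replicate 2, and 10204 had equal values. Notch1 and Hey1 were lowest in replicate 3, and Notch4 and Dll4 in replicate 2. Notch3 was among the genes with equal values, which cannot show whether it followed any marker. The part of these markers in the Notch values was not tested. Without replicate 3, 4 of the 10 Notch genes were called above 100 and 2 below, and 4 were called above without replicate 1 or replicate 2 too. Calls were lost over the whole array as well. Of 35557 probesets 7264 were above with all samples, and 5190, 5320 and 6866 without replicate 1, 2 and 3. Below were 22533 with all samples and 22237 without replicate 3. The 10 Notch genes summed to 1490, 1440 and 1420.

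**Figure D5:**
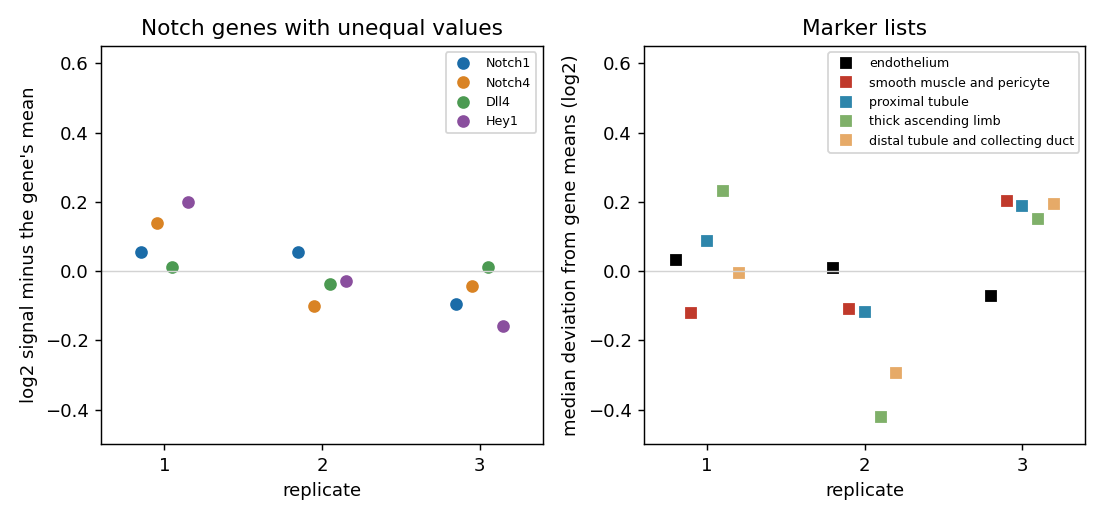
Left, log2 signal minus the mean of the gene (vertical axis) in each replicate (horizontal axis) for the 4 Notch genes with unequal values; right, the median of such deviations over 5 marker lists. Notch1 and Hey1 are lowest in replicate 3 and Notch4 and Dll4 in replicate 2; in replicate 3 the endothelial median is -0.071 and the smooth muscle and pericyte median 0.203, and in replicate 2 the thick ascending limb median is -0.42.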

How the data were processed

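Values were the log2 signals that the authors deposited, 1 column per sample for 35557 probesets, summarised and normalized before deposit. The paper names RMA in GeneSpring GX and the submitters' notes name Affymetrix Expression Console. Which arrays shared 1 normalization is not given in the sources at hand. Probesets were named from the platform annotation, and a gene with several was taken at its highest mean. An intercept was fitted per probeset to the log2 signal less 6.64 (a signal of 100), in limma 3.58.1 (R 4.3.3) with a variance trend over mean signal. Means above and below were tested one-sided, with an adjusted p under 0.05 called. Residual degrees of freedom were 2 and prior degrees 0.297, so moderation added little for probesets with unequal values. For probesets with 3 equal values the spread used in the test came from the prior alone. The fit was checked on simulated data with 1 common spread and no equal values. That check does not cover probesets with equal values or with very unequal spreads, as in the deposited data. Arrays give no counts, and their number, 3, limits the precision. The Notch genes, the lists and the rule for naming genes (all 10, the first 4 of each list, all of small counts, all other Hes and Hey genes, and arterial and venous genes above 100) were chosen with earlier results of these data known. Kap and Emcn were named outside this rule, as the highest genes of their lists. The study states independent biological samples.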

Additional observations from a re-analysis of the deposited data

How the results depend on the processing

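The Notch genes above 100 numbered 6. They numbered 9 at a limit of 50, 1 at 200 and 4 without any 1 replicate. Those below, 3, numbered 8 at 200, 1 at 50, 1 with dim probesets left out (which removed Notch2 and Dll1) and 2 or 3 without 1 replicate. Of the other pathway genes 19 were above, 42 at 50, 7 at 200 and 12 to 13 without 1 replicate. Of those below, 26, there were 9 at 50, 16 without dim probesets and 24 to 26 without 1 replicate. Counts over all probesets moved too. Of 35557 probesets 7264 were above, 15254 at 50, 3395 at 200 and 5190 to 6866 without 1 replicate. Below were 22533, with 15006 at 50, 27569 at 200 and 21121 to 22237 without 1 replicate. With dim probesets left out 5698 of 19180 were below. The fits without 1 replicate have 1 residual degree of freedom, against 2 with all samples.

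A limit of 200 moved these log2 differences under 0: Notch1 to -0.108, Notch3 to -0.744, Notch4 to -0.342, Dll4 to -0.417, Jag2 to -0.936, Hey1 to -0.433, Mfng to -0.613, Neurl1b to -0.888, Furin to -0.774, Maml2 to -0.879, Numb to -0.201, Hes5 to -0.99, Hes6 to -0.95 and Heyl to -0.896. A limit of 50 moved others over 0: Notch2 to 0.011, Hes1 to 0.996, Dlk1 to 0.53, Dlk2 to 0.985, Pofut1 to 0.942, Poglut1 to 0.932, Lfng to 0.852, Mib2 to 0.416, Neurl1a to 0.194, Maml1 to 0.387, Maml3 to 0.199 and Hes7 to 0.726. These turns follow from the limit itself. The mean over a gene's probesets gave -0.778 for Neurl1b, -0.015 for Rbpj and -0.154 for Maml2, and the lowest probeset gave -1.668, -1.238 and -0.428, and -0.124 for Fbxw7. Over single Notch genes and alternatives, 110 results kept direction and call, 14 lost the call, 6 gained one and 8 turned. The 110 include the lowest probeset and the mean over probesets, which for genes of 1 probeset use the same values. No paired analysis was possible because the samples form 1 group.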
